A study of Mus musculus with 4 samples.

Results

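The 43 genes described here drive or carry out cell division: 6 act at entry into the cycle in G1, 18 at the start of S phase or in DNA replication, and 19 in mitosis. They were taken as the array probes whose transcript identifier belongs to 1 of these 43 symbols in a RefSeq gene table, out of 23451 genes with a value, and 66 probes carried them. The RNA came from bone marrow-derived dendritic cells, which were grown from femur marrow of male C57BL/6J mice for 6 days in MEM that held 10 ng/ml GM-CSF and 10% FBS. All 4 groups therefore share wild-type marrow (the titles write WT) and GM-CSF, a growth factor that myeloid precursors need to divide. The groups were medium without stimulation, LPS (100 ng/ml), LA (20 mM, given as L-(+)-LA, while the series title refers to lactate) and LPS with LA, each stimulation lasting 4 h, with 1 single-colour Cy3 array per group. The labels give no age or number of mice, no time for medium and no pH for LA. GM-CSF cultures hold dividing precursors and other myeloid cells beside dendritic cells, so a level describes the whole culture. Without replicates no difference between groups could be tested, and every difference is one between 2 arrays.

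A cell enters the cycle when mitogens raise MYC and the D cyclins, which switch on CDK4 and CDK6 and thereby free the E2F transcription factors. E2F proteins with cyclin E and CDK2 then turn on the genes that license replication origins and make nucleotides and DNA. In G2 another programme, run by FOXM1 and by complexes that read CHR elements, turns on cyclin B, the mitotic kinases and the proteins of kinetochore and spindle. In myeloid cells division is tied to immaturity: precursors in marrow cultures divide, whereas LPS, which signals through Toll-like receptors, is known to drive dendritic cells into a mature state in which they stop dividing.

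Of the spots that were not controls, 56.5% to 64.1% were well above background per array. Spots of 1 probe on 1 array, over 300 probes with 10 spots each, had a median SD of 0.051 to 0.054 log2 units. Different probes of 1 gene had a median SD of 0.20 to 0.31 log2 units in their differences between arrays, and neither error holds the spread between cultures. The label of the cells was checked on 16 dendritic cell markers, of which 14 or 15 per array were well above background, among them Itgax, Zbtb46, H2-Aa and Cd74, while Xcr1 was not on any array. Of 14 macrophage and monocyte markers 13 or 14 were as well, among them Itgam, Csf1r, Cd68 and Adgre1, so markers of both cell types were detected and the label rests on the culture protocol. Of 16 neutrophil and granulocyte precursor markers all were well above background on the 4 arrays, as were 11 or 12 of 12 stem and progenitor markers. Of 14 lymphocyte and NK markers 7 to 10 were, and Ms4a1, Ncr1, Cd2 and Ebf1 were not on any array.

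Promoter sequences are shown because the S phase and the mitosis genes carry different elements. Windows from 250 bases before to 30 bases after the start of transcription were taken from a RefSeq promoter table (build GRCm38.p6), in which 34 of the 43 genes have one. Ccnd1, Ccnd2, Myc, Ccne2, Mcm4, Ccna2, Foxm1, Aurkb and Kif20a have none there. Each window was searched on both strands for the E2F motif TTTNNCGC, the CHR motif TTTGAA, the CCAAT box CCAAT and the E-box CACGTG, which MYC and its partners bind. In the windows printed here no base belongs to more than 1 motif. Matches are in capitals, and a match on the other strand reads as its reverse complement, so that E2F appears as GCGGGAAA and the CCAAT box as ATTGG. E2f2 (chr4:136172024-136172303, plus strand) and Cdk2 (chr10:128705022-128705301, minus strand) are the S phase genes with the largest differences between LPS with LA and LPS. Cdc6 (chr11:98907901-98908180, plus strand) has an E2F match and differed little. Cdk4 (chr10:127063285-127063564, plus strand) is the gene with 4 E-boxes. Cenpa (chr5:30666636-30666915, plus strand) and Ccnb2 (chr9:70421525-70421804, minus strand) are mitosis genes with CHR and CCAAT, the former lower on the 3 stimulated arrays and the latter nearly level.
E2f2: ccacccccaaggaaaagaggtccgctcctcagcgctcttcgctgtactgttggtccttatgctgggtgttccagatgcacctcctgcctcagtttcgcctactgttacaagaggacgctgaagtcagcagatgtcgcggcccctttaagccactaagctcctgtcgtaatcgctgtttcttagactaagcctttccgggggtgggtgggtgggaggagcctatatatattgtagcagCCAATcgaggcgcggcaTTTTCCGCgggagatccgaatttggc
Cdk2: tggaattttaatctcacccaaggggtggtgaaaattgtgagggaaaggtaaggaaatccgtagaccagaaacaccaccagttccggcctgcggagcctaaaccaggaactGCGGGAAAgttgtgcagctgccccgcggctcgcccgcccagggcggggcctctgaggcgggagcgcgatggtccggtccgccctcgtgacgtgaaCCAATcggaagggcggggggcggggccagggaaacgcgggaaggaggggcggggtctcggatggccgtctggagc
Cdc6: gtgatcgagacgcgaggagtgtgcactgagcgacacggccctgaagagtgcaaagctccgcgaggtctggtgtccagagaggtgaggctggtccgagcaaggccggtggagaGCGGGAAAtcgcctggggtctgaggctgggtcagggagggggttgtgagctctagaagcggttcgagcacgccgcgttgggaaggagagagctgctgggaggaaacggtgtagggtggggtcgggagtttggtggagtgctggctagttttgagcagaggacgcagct
Cdk4: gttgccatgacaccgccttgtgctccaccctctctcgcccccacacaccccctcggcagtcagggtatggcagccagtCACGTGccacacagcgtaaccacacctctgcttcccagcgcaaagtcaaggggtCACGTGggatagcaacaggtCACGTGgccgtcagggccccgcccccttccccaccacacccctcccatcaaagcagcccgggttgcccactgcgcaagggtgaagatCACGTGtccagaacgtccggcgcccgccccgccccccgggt
Cenpa: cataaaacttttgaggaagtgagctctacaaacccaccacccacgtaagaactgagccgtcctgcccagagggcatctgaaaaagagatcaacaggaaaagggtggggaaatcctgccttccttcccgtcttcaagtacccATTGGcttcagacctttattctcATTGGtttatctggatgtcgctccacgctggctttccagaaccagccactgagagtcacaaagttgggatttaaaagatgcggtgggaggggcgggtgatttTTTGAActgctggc
Ccnb2: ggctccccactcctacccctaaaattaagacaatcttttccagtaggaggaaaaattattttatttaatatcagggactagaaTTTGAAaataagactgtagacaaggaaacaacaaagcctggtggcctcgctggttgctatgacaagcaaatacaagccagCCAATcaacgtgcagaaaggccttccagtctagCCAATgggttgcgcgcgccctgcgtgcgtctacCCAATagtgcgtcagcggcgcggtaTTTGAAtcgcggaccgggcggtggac

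E2F matches lay in the windows of 7 of 16 S phase genes (43.8%) and of 1 of 15 mitosis genes (6.67%), Cdk1, the kinase that cyclin B activates. Over all 27025 genes with a window the share was 5.57%, and over all 32851 windows it was 4.84%. Counted from the start of transcription, the match begins at position 5 in E2f2 and at -140 in Cdk2. CHR matches went the other way, with 8 of 15 mitosis genes (53.3%) and 3 of 16 S phase genes (18.8%), against 19.5% of all genes and 17.2% of all windows. Ccnb2 held 2 CHR matches and 3 CCAAT boxes, and in Cenpa the CHR match begins at position 17. CCAAT boxes were in 14 of 15 mitosis genes (93.3%) and 11 of 16 S phase genes (68.8%), against 39.7% of all genes and 36.1% of all windows, and all 8 mitosis genes with CHR also had one. E-boxes were in Cdk4, Cdk6 and Tyms only among the 34 genes, against 7.71% of all genes and 6.79% of all windows. The longer lists of genes of these phases, taken without the 43, showed E2F in 11 of 41 S phase genes (26.8%) and CHR in 33 of 53 mitosis genes (62.3%). E2F was also in 9 of these 53 mitosis genes (17.0%), above the share of all genes, and CHR in 7 of the 41 S phase genes (17.1%). CCAAT boxes were in 34 of the 53 (64.2%) and 22 of the 41 (53.7%), so these differences between phases were smaller than among the 43. A match is a description of the letters and not a binding site.

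**Figure D1:**
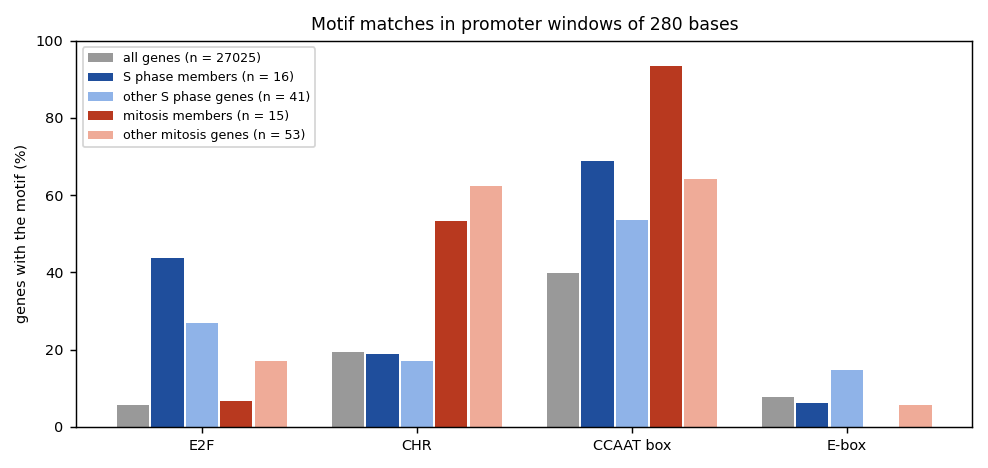
Share of genes (%, vertical axis) whose promoter window of 280 bases holds each motif, for all genes and for the S phase and mitosis genes, with n the genes that have a window. E2F stands at 43.8% of S phase members against 6.67% of mitosis members, and CHR at 53.3% of mitosis members against 18.8% of S phase members.

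The 9 genes with an E2F match had a median difference of -0.31 for LPS against medium, 0.20 for LA against medium, 0.24 for LPS with LA against LPS and 0.22 for LPS with LA against LA. The 11 genes with both CHR and CCAAT had medians of -0.22, 0.16, 0.24 and 0.08 in the same order. E2f2 belongs to both sets through 2 separate windows. The genes of both sets spread widely around these medians: with LPS and LA against LPS, the CHR and CCAAT set reached from -0.75 (Mcm2) to 3.34 (E2f2).

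A level is the log2 ratio of a probe's processed signal to the array's 75th percentile, and a gene's level is that of its brightest probe. All 43 genes were well above background on all 4 arrays. Their differences were centred on different genes in each comparison: Ccnd2, a D cyclin, was the highest with LPS, Myc and E2f2 were among the highest with LA, and E2f2, Cdk2 and Myc were the highest with LPS and LA against LPS alone. Fewer cells of a type and less RNA per cell cannot be told apart in these bulk samples. With LPS against medium 2 genes were at least 2-fold higher and 2 at least 2-fold lower, against 8.14% higher and 7.5% lower (15.6% in all) of 13592 genes measured on both arrays. With LA against medium 3 were higher and 1 lower, against 3.12% and 3.33% (6.44% in all) of 14554 genes. Adding LA to LPS gave 10 higher and 2 lower than LPS alone, against 11.5% and 12.5% (24.0% in all) of 13631 genes, so the 43 genes held more higher than lower genes where all genes were nearly balanced. Adding LPS to LA gave 0 of the 43 at least 2-fold higher and 1 lower, against 0.906% and 1.5% (2.4% in all) of 14903 genes. By their brightest probes, the remaining 29 of the 43 genes differed by less than 2-fold in all 4 comparisons, and 20 of those by less than 1.5-fold. These counts over all 4 comparisons were not made for all genes. The numbers depend on scaling: with the factors of the authors' deposited value table, 2 were higher and 4 lower with LPS, 6 higher and 1 lower with LA, and 12 higher and 1 lower with LPS and LA against LPS. That table also moved the share of higher genes among all genes 2-fold apart from 52.1% to 30.1%, from 48.4% to 65.6% and from 48.0% to 76.7% in the same order, and put the median of all genes at -0.24, 0.17 and 0.43 in place of 0.00, 0.02 and 0.00.

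**Figure D2:**
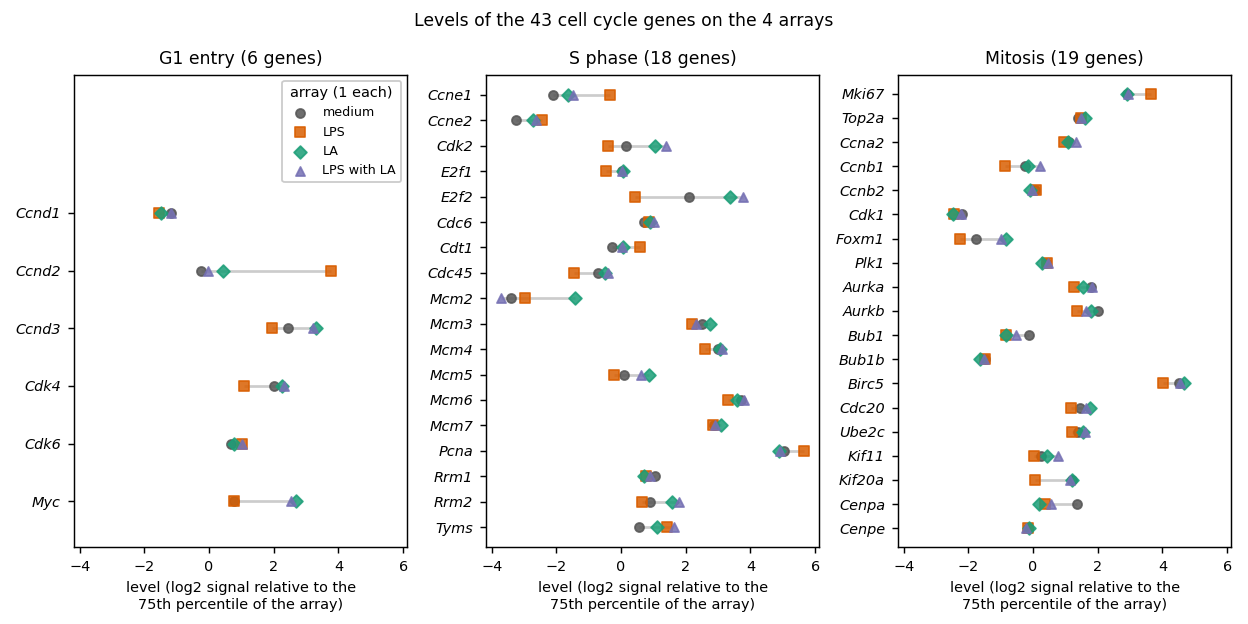
Level of each gene (horizontal axis, log2 of signal over the array's 75th percentile) on the 4 arrays, 1 per group, with a grey line from the lowest to the highest. Ccnd2 (3.78 with LPS) and E2f2 (0.43 with LPS, 3.78 with LPS and LA) span the widest ranges, while most mitosis genes span less than 1 unit.

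The G1 entry genes spread the most, with a median range over the 4 arrays of 1.29 log2 units against 0.83 for S phase and 0.59 for mitosis genes. Ccnd2, cyclin D2, which activates CDK4 and CDK6, had levels of -0.26 in medium, 3.78 under LPS, 0.44 under LA and -0.03 under both stimuli. The LPS array stood alone above the other 3. Ccnd2 was 16.5-fold higher with LPS than in medium and 14.1-fold lower with LPS and LA than with LPS. The second probe of Ccnd2 had differences of 3.66 and -2.40 in these comparisons, the latter 1.42 units smaller in size than that of the brighter probe.

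Ccnd3, cyclin D3, the D cyclin prominent in blood cells, went the other way. Its levels were 2.42 in medium, 1.96 under LPS, 3.30 under LA and 3.22 under both stimuli, so both LA arrays lay above both arrays without LA. It was 2.40-fold higher with LPS and LA than with LPS and 1.84-fold higher with LA than in medium, and its second probe differed by 1.30 and 0.70 log2 units in these comparisons. Ccnd1, cyclin D1, lay between -1.56 and -1.18 on the 4 arrays and differed by less than 1.31-fold throughout. Of the D cyclins, Ccnd2 thus had its highest level with LPS, and Ccnd3 and Ccnd1 their lowest (Ccnd1 -1.56 against -1.50 under LA).

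Cdk4, the kinase that D cyclins activate, had levels of 2.02 in medium, 1.08 under LPS, 2.25 under LA and 2.32 under both stimuli. Only the LPS array stood apart, 1.91-fold below medium and 2.35-fold below LPS with LA, and all 3 Cdk4 probes were lowest there. Cdk6, the other kinase that D cyclins activate, lay between 0.67 and 1.02 on the 4 arrays by its brightest probe. Its other probes were both highest with LPS. They differed by 0.75 and 0.84 log2 units with LPS against medium and by -0.83 and -0.48 with LPS and LA against LPS. Myc, the transcription factor that couples mitogens to growth, had levels of 0.76 in medium, 0.78 under LPS, 2.70 under LA and 2.54 under both stimuli. Both LA arrays were high and both others low. Myc was 3.83-fold higher with LA than in medium and 3.38-fold higher with LPS and LA than with LPS, and its second probe gave 1.37 and 1.04 log2 units.

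**Figure D3:**
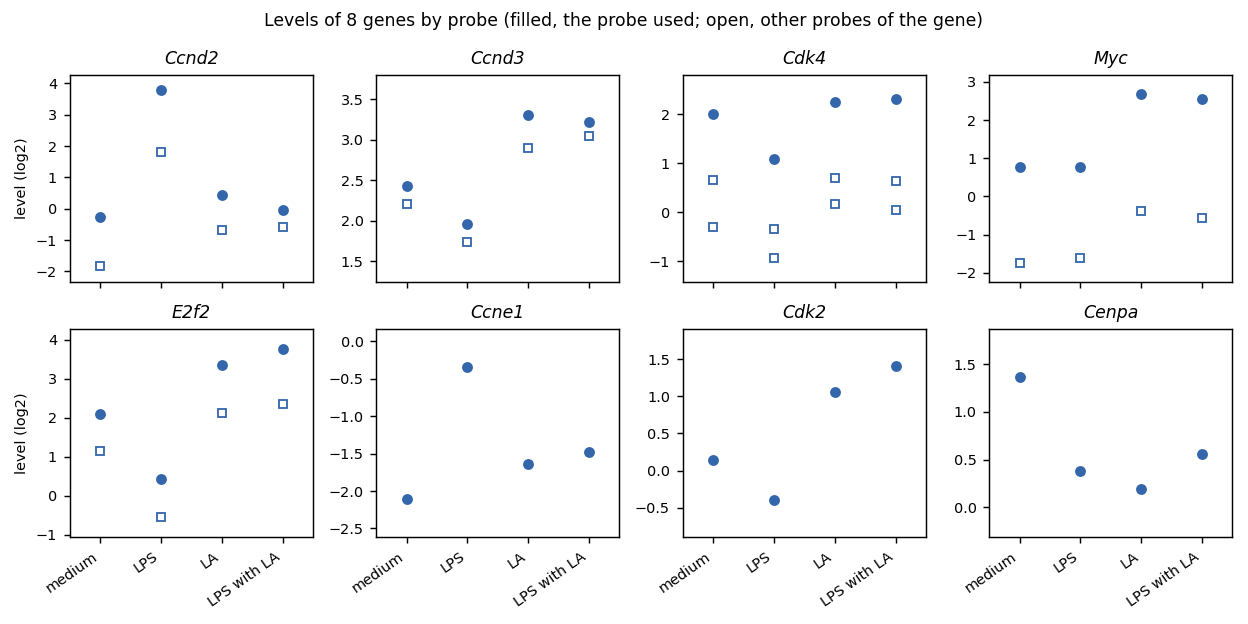
Level (vertical axis, log2 of signal over the array's 75th percentile, scaled separately per panel) of 8 genes on the 4 arrays, with the brightest probe filled and other probes of the gene open. Both Myc probes are high on the 2 arrays with LA, both Ccnd2 probes are highest with LPS, and both E2f2 probes are lowest with LPS.

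Among the S phase genes, E2f2, Cdk2 and Ccne1, which control entry into the phase, had the widest ranges apart from the dim Mcm2. E2f2, a transcription factor that activates S phase genes, had levels of 2.10 in medium, 0.43 under LPS, 3.37 under LA and 3.78 under both stimuli. The LPS array was the lowest and the 2 LA arrays the highest. E2f2 was 3.18-fold lower with LPS than in medium, 2.41-fold higher with LA than in medium and 10.2-fold higher with LPS and LA than with LPS, and its second probe differed by -1.72, 0.98 and 2.91 log2 units. The related E2f1 ranged only from -0.48 to 0.06.

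Cdk2, the kinase of cyclin E and cyclin A, had levels of 0.14 in medium, -0.39 under LPS, 1.06 under LA and 1.40 under both stimuli. Its order over the arrays was that of E2f2, and it was 3.46-fold higher with LPS and LA than with LPS. Ccne1, cyclin E1, the partner of CDK2 at the start of S phase, had levels of -2.11 in medium, -0.34 under LPS, -1.64 under LA and -1.49 under both stimuli. Here the LPS array was the highest, 3.41-fold above medium and 2.21-fold above LPS with LA. Ccne2, cyclin E2, was also lowest in medium (-3.26) and highest with LPS (-2.44). However, its signal lay below the median background of the array in medium (18.6 against 24) and narrowly with LA (23.99 against 24).

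Of the genes that make nucleotides, Rrm2, the regulated subunit of ribonucleotide reductase, had levels of 0.90 in medium, 0.64 under LPS, 1.58 under LA and 1.80 under both stimuli. Both LA arrays were above both others, and Rrm2 was 2.23-fold higher with LPS and LA than with LPS. Rrm1, the larger subunit, spanned only 0.33 log2 units. Tyms, thymidylate synthase, was lowest in medium (0.56) and higher on the 3 stimulated arrays (1.12 to 1.63), by 1.82-fold with LPS. Its second probe differed by 1.20 log2 units with LPS against medium, where the brighter one had 0.86. With LPS and LA against LA the second probe had 0.98 and the brighter one 0.52.

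Cdc45, a component of the replicative helicase, had levels of -0.70 in medium, -1.45 under LPS, -0.50 under LA and -0.41 under both stimuli. Its brighter probe was 2.06-fold higher with LPS and LA than with LPS, but the second probe differed by -0.21 log2 units, so the probes did not share a direction. Mcm2 to Mcm7 encode the subunits of the helicase ring. Mcm2 had levels of -3.39 in medium, -2.96 under LPS, -1.43 under LA and -3.72 under both stimuli, with the LA array alone above the rest. That is 3.90-fold higher with LA than in medium and 4.87-fold lower with LPS and LA than with LA, but its processed signal was 17.0, 22.3, 58.6 and 11.1 and lay below the median background of the array (23 to 24) on 3 arrays. After normexp background correction the differences were 0.78 and -0.70.

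The other subunits of the ring differed less by their brightest probes. Mcm3, Mcm5 and Mcm7 were also highest with LA, by 0.26, 0.78 and 0.20 against medium. With LPS and LA against LA they differed by -0.43, -0.26 and -0.18. Mcm4 and Mcm6 were highest with LPS and LA. Mcm5 ranged from -0.21 with LPS to 0.88 with LA and was 1.78-fold higher with LPS and LA than with LPS. Mcm3, Mcm4, Mcm6 and Mcm7, subunits of the same ring, spanned 0.57, 0.54, 0.51 and 0.25 log2 units, by their brightest probes. All 4 were lowest with LPS, Mcm7 by less than the SD between spots. The dimmer probe of Mcm7 differed by -1.06 with LPS against medium and by 1.13 with LPS and LA against LPS, where the brighter one had -0.05 and 0.07, so the size of the Mcm7 difference depends on the probe. Pcna, the sliding clamp of DNA polymerase, was highest with LPS (5.66 against 4.89 to 5.05 on the other arrays). Cdt1, which loads the helicase, was also highest with LPS (0.57 against -0.27 in medium). Cdc6, its partner, spanned 0.31 units by its brighter probe, while the dimmer probe differed from it by 1.54 units for LPS with LA against LA.

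Of the mitosis genes, 4 were at least 2-fold apart in a comparison. Foxm1, the transcription factor of the G2 and M programme, had levels of -1.78 in medium, -2.25 under LPS, -0.83 under LA and -0.99 under both stimuli. The 2 LA arrays lay above the others, and Foxm1 was 2.39-fold higher with LPS and LA than with LPS, though by 0.50 log2 units after normexp. Ccnb1, cyclin B1, which activates CDK1 at mitosis, had levels of -0.24 in medium, -0.88 under LPS, -0.16 under LA and 0.20 under both stimuli. It was lowest with LPS, 2.12-fold below LPS with LA. Another Ccnb1 probe differed by 0.52 log2 units in that comparison, and the dimmest probe was not well above background with LPS.

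Kif20a, a kinesin of cytokinesis, had levels of 1.19 in medium, 0.06 under LPS, 1.20 under LA and 1.14 under both stimuli. The LPS array was low and the other 3 nearly equal, with a 2.19-fold difference between LPS and medium and 2.12-fold between LPS with LA and LPS. Cenpa, the histone H3 variant that marks centromeres, had levels of 1.37 in medium, 0.38 under LPS, 0.19 under LA and 0.56 under both stimuli. Medium was the highest here, 2.26-fold above LA and 1.99-fold above LPS. Bub1, a spindle checkpoint kinase, was likewise highest in medium (-0.12) and lower on the 3 stimulated arrays (-0.85 to -0.53), by 1.66-fold with LPS and 1.64-fold with LA.

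Mki67, the proliferation marker that coats mitotic chromosomes, stood against most of this group, with levels of 2.90 in medium, 3.66 under LPS, 2.91 under LA and 2.93 under both stimuli. The LPS array was 1.69-fold above medium. The kinases Aurka and Aurkb, which act at centrosome and centromere, were lower with LPS than in medium by 1.43-fold and 1.57-fold, and both Aurkb probes gave this direction (-0.65 and -0.69). Birc5, survivin, the partner of Aurora B, was lower with LPS by 1.39-fold. Cdc20 and Ube2c, which drive the ubiquitin ligase of anaphase, were both lowest with LPS and were 1.37-fold and 1.34-fold higher with LPS and LA than with LPS. Kif11, the kinesin that separates the poles, ranged from 0.04 with LPS to 0.78 with LPS and LA.

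Several central mitosis genes were nearly level. Cdk1, Plk1, a mitotic kinase, Ccnb2, cyclin B2, Bub1b and Cenpe, checkpoint and kinetochore proteins, and Top2a, which untangles chromosomes, spanned 0.08 to 0.29 log2 units over the 4 arrays. Ccna2, cyclin A2, spanned 0.36 by its brighter probe, while its dimmer probe had a difference of -0.91 with LPS against medium.

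Of the 21 differences of at least 2-fold among the 43 genes, 11 stayed at least 2-fold under all 8 alternative ways of processing and 0 changed sign. After normexp Ccne1 differed by 0.91 with LPS against medium and by -0.60 with LPS and LA against LPS. In the latter comparison Cdc45 differed by 0.76, Ccnb1 by 0.82, Kif20a by 0.93 and Rrm2 by 0.97, and Cenpa differed by -0.98 with LA against medium.

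By phase, the medians were small beside the spread of single genes. The S phase genes had a median difference from medium of -0.27 with LPS, where the median of all genes was 0.00, and 11 of 18 were below 0, while 50.2% of all genes were above 0. The mitosis genes had -0.26, with 15 of 19 below 0, led by Kif20a and Cenpa, while Mki67 was the highest of the group. With LA against medium the median was 0.30 for S phase, with 15 of 18 genes above 0 against 52.3% of all genes, and 0.01 for mitosis, where all genes had 0.02. For LPS with LA against LPS it was 0.19 for S phase and 0.32 for mitosis, where all genes had 0.00, and 15 of 19 mitosis genes were above 0 against 50.2% of all genes. For LPS with LA against LA it was 0.09 and 0.08 against -0.02. These medians depend on the processing: relative to all genes, that of the S phase genes for LPS with LA against LPS, 0.19, ranged from 0.085 with normexp to 0.43 with the probes of each gene averaged. The comparisons share arrays (the LPS array is added in the first and subtracted in the third), so they do not stand for separate observations.

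**Figure D4:**
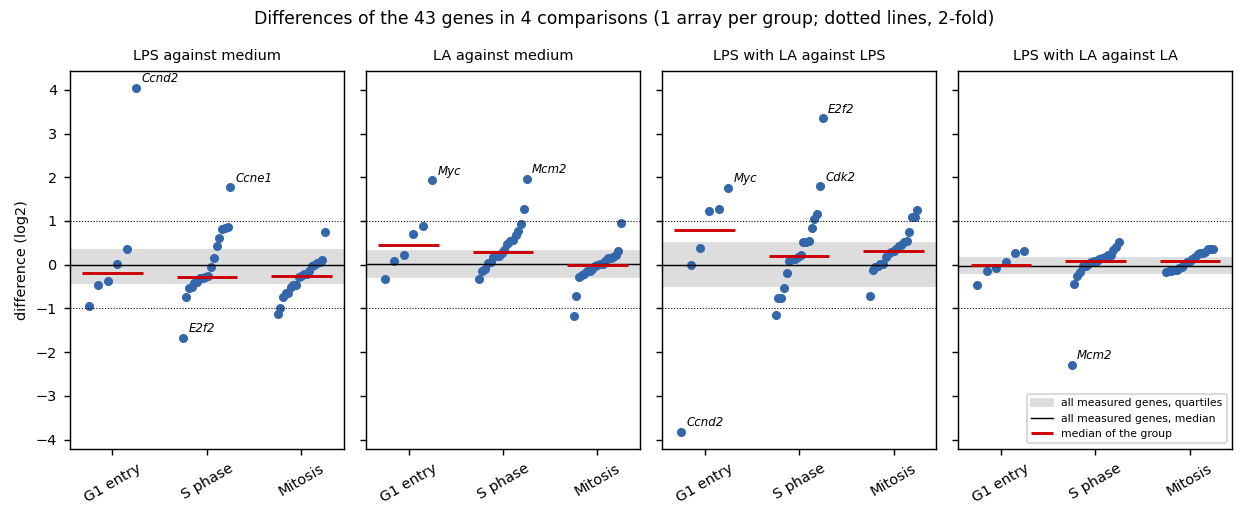
Difference (log2, vertical axis) of each gene in the 4 comparisons, 1 point per gene, with red bars for the median of each phase, a black line and a grey band for the median and quartiles of all measured genes, and dotted lines at 2-fold. Most points lie within 1 unit of 0, and Ccnd2 (4.04 and -3.81) and E2f2 (3.34) lie farthest out.

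The LPS array was the lowest of the 4 for 24 of the 43 genes (55.8%), against 37.5% of 13368 genes well above background on all arrays. It was the highest for 8 of them (18.6%), against 34.7%: Ccnd2, Ccne1, Ccne2, Cdt1, Pcna, Mki67, Ccnb2 and Cdk6, the last 2 by less than the SD between spots. That holds for the brightest Cdk6 probe, while the dimmer ones were highest with LPS by more than that SD. Among the 24, Bub1 (-0.85 against -0.83 under LA) and Mcm7 (2.83 against 2.88 in medium) were also lowest by less than that SD. Of the mitosis genes 11 of 19 were lowest with LPS and of the S phase genes 10 of 18. With the factors of the authors' deposited value table the LPS array was the lowest for 34 of the 43 and for 59.9% of all genes.

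Genes of the same phases outside the 43 were read from lists of 54 S phase and 64 mitosis genes. With LPS against medium the S phase list had a median of -0.29. Of its 49 measured genes 1 was at least 2-fold higher and 4 lower, against 8.14% and 7.5% of all genes. Gins4, a helicase subunit, and Asf1b, a histone chaperone, were the lowest (-2.75 and -1.75), and Rfc3, of the clamp loader, and Timeless, of the replication fork, the highest (1.52 and 0.85). The mitosis list had -0.23, with 1 higher and 4 lower of 60. Nek2, a centrosome kinase, had the lowest difference (-1.60) and Pttg1, securin, an inhibitor of sister chromatid separation, the highest (2.46).

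Against LPS alone, LPS with LA had 10 of 49 genes of the S phase list at least 2-fold higher and 4 lower (median 0.40), and 10 of 60 of the mitosis list higher and 1 lower (median 0.45). Of all genes 11.5% were higher and 12.5% lower there. Dnmt1, the maintenance DNA methyltransferase, differed by 1.57, Brca2, a recombination protein, by 1.48, Nek2 by 1.95 and Iqgap3 by 1.85. Timeless (-2.43), Blm, a DNA helicase (-1.22), Pttg1 (-2.84) and Smc4, of condensin (-0.96), were the lowest. With LA against medium 3.12% of all genes were at least 2-fold higher and 3.33% lower. Both list medians were near 0 there (0.08 and 0.04). Of 51 S phase genes 1 was higher and 2 lower, and of 62 mitosis genes 1 was higher and none lower. Exo1, an exonuclease of DNA repair (1.15), and Nuf2, a kinetochore protein (1.32), were the highest. Against LA alone the medians were 0.03 and 0.12.

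Inhibitors of the cycle were read from a list of 20 CDK inhibitors, pocket proteins and E2F repressors. With LPS against medium 3 of 15 measured genes were at least 2-fold higher and 1 lower, against 8.14% and 7.5% of all genes. Cdkn1a, p21, an inhibitor of CDK2, and Rbl1, a pocket protein of the RB family, were the highest (1.91 and 1.61), and Tob1, an antiproliferative protein, the lowest (-1.02). When LA was added to LPS, 2 of 16 were higher and 5 lower than with LPS, against 11.5% and 12.5% of all genes. Cdkn1a (-2.93) and Rbl1 (-2.29) were now the lowest and Tob1 (1.61) and Pkmyt1, an inhibitory kinase of CDK1 (1.22), the highest. With LA against medium Cdkn1a (-1.22) and Cdkn1b, p27, another CDK inhibitor (-0.98), were the lowest of 17 and Pkmyt1 (1.54) and E2f8, an E2F repressor (0.80), the highest, with 1 higher and 1 lower by at least 2-fold. Of all genes 3.12% were higher and 3.33% lower in that comparison.

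The MYC network held large differences beside Myc itself. With LPS against medium Mxd1, which competes with MYC for their partner MAX, differed by 2.94 log2 units and Mycl, a MYC paralogue, by 2.36, while Mnt, another MYC antagonist, was lowest at -1.90. Against LPS alone, with LA added, Mxd1 (-3.12) and Odc1, ornithine decarboxylase, a MYC target (-2.00), were the lowest of 22 measured genes and Mnt (2.26) and Wdr12, a ribosome assembly factor (1.24), the highest, with 3 higher and 7 lower. Of all genes 11.5% were higher and 12.5% lower in that comparison. With LA against medium, where Myc was high, the list of 25 measured genes had a median of -0.16, with 1 higher and 3 lower, and Odc1 was the lowest (-1.44). All genes had 3.12% higher and 3.33% lower there.

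The ubiquitin ligases that end each phase had a median of -0.37 with LPS against medium, with none of 24 higher and 1 lower, and of 0.42 with LPS and LA against LPS, with 4 higher and none lower. All genes had 8.14% higher and 7.5% lower in the former comparison, and 11.5% and 12.5% in the latter. Skp2, which targets p27 for degradation, was the highest of these ligases with LA against medium (1.02) and with LPS and LA against LPS (1.63). Other activators of CDKs and E2F had medians of -0.13, -0.07, 0.18 and 0.01 in the 4 comparisons. Lin54, of the complex that reads CHR elements, was among their lowest with LA against medium (-1.20) and with LPS and LA against LPS (-1.54).

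**Figure D5:**
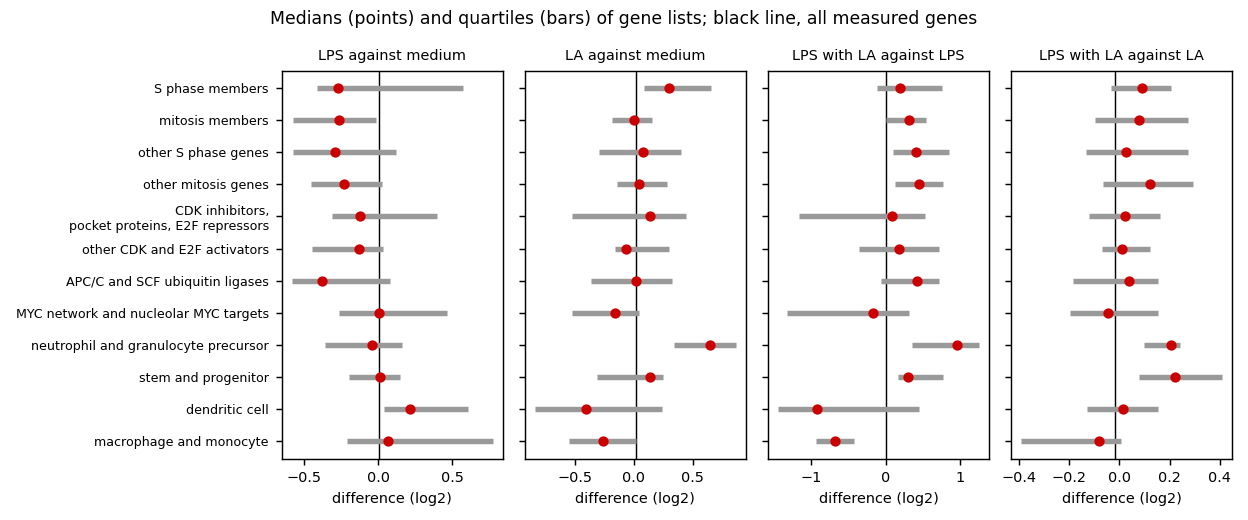
Median (red points) and quartiles (grey bars) of the log2 difference (horizontal axis, scaled separately per panel) of gene lists in the 4 comparisons, with a black line at the median of all measured genes. Neutrophil and granulocyte precursor markers stand at 0.64 with LA against medium and 0.96 with LPS and LA against LPS, above the S phase genes at 0.30 and 0.19.

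Markers of other cell types differed between the same arrays as the cell cycle genes. The 16 neutrophil and granulocyte precursor markers had a median of -0.04 with LPS against medium, 0.64 with LA against medium, 0.96 with LPS and LA against LPS and 0.21 with LPS and LA against LA, and 8 of 16 were at least 2-fold higher in the third of these, against 11.5% of all genes. Elane, neutrophil elastase, had levels of 1.41 in medium, 0.43 under LPS, 2.03 under LA and 2.32 under both stimuli, lowest with LPS as E2f2 was. The list was divided there: with LPS against medium 9 of its 16 genes were below 0, with Cxcr2 the lowest at -1.98, and 7 above, and Lcn2, an iron-scavenging protein of neutrophil granules, was highest with LPS (6.71 against 5.50 in medium). The summed signal of the list relative to the 75th percentile was 728 in medium, 878 under LPS, 964 under LA and 1008 under both stimuli. Mast cell, basophil and eosinophil markers summed to 54.5, 99.7, 106 and 112 in the same order, lowest in medium. Their median was 0.75 with LPS against medium, 0.86 with LA against medium, 0.31 with LPS and LA against LPS and -0.01 with LPS and LA against LA. Epx, eosinophil peroxidase, had levels of 1.26 in medium, 2.39 under LPS, 3.003 under LA and 2.89 under both stimuli. Macrophage and monocyte markers summed to 432, 499, 429 and 468, with medians of 0.07, -0.26, -0.69 and -0.08 in the same comparisons. Stem and progenitor markers summed to 11.9, 11.9, 13.0 and 14.5, and dendritic cell markers to 299, 344, 230 and 218. Such sums weigh the brightest genes most and do not speak for each marker. In medium these were Cd74 (6.89), H2-Ab1 (6.52) and H2-Aa (5.91) among dendritic cell markers. Among macrophage and monocyte markers Itgam (8.07) was the brightest. Of 10 erythroid markers with a probe 7 were well above background on each array, among them Klf1, Gata1 and Tfrc, while Hbb-b1 and Rhag were on none. Erythroid markers summed to 5.14 to 7.06. Fibroblast, stromal and endothelial markers, of which 7 to 9 of 12 were well above background per array, summed to 2.67 to 4.55. The part of these cell types in the differences of the cell cycle genes was not tested.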

How the data were processed

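RNA of 4 cultures was measured on 4 single-colour Agilent arrays, which share 1 slide and 1 scan time. The authors deposited the scanner files, whose linear intensity per spot is background-subtracted by Feature Extraction (version 12.0.3.1 per the file headers, 11.5.1.1 per the submitters' processing notes) and carries no scaling between arrays. Their deposited value table holds the same intensities multiplied by a constant for each array, which was 6.67 in medium, 5.82 under LPS, 8.38 under LA and 9.30 under both. It is linear and not centred, and its columns have medians of 1038, 873, 1164 and 1189.

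Control spots and spots marked as outliers were left out, and spots of a probe were averaged. Levels were log2 of the intensity minus the log2 of the 75th percentile over spots that were not controls (179, 174, 158 and 146). Of 56605 probes, 33767 matched 1 gene of a GRCm38.p6 RefSeq table by transcript identifier. The array headers name mm9, and no coordinate was taken from the arrays. A gene used its brightest probe. A gene entered a comparison if both of its arrays detected it well above background; 1 log2 unit is 2-fold. The steps were tested on simulated data.

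Named in full are the members at least 2-fold apart in a comparison; of each other pathway list the 2 highest and 2 lowest measured genes of a comparison could be named. The members, lists and rules were chosen with earlier results of these data known. Of 359 list genes 2 had no probe. Alternatives were normexp (offset 50, on the median spot signal because the mean was not held), quantile normalization, scaling by the median, scaling by the 75th percentile of probes that every array detected, keeping dim probes, keeping only probes detected on every array, averaging a gene's probes, and the authors' table. Python 3.11.15 (matplotlib 3.10.9, pandas 2.3.3, numpy 2.4.6) and R 4.3.3 (limma 3.58.1) were used.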

Additional observations from a re-analysis of the deposited data

Results flagged for a closer look

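For 8 of the 43 genes the difference made by 1 stimulus had opposite signs with and without the other, and the gap between them was at least 1 log2 unit. The same count was not made over all genes, so it does not set the 43 apart. With 1 array per group none of these gaps was tested. Ccnd2 differed by 0.70 with LA in place of medium and by -3.81 when LA was added to LPS, a gap of -4.51, and equally by 4.04 with LPS alone and by -0.46 with LPS beside LA. Its second probe gave 3.66 with LPS alone and 0.10 with LPS beside LA, so there the sign did not differ. Ccne1 differed by 0.47 and -1.14 with LA, a gap of -1.61. Mcm2 differed by 1.96 and -0.75 with LA, a gap of -2.72, and by 0.43 and -2.28 with LPS, on signals near background.

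E2f2 differed by -1.67 with LPS alone and by 0.41 with LPS beside LA, a gap of 2.08. Cdk4 differed by -0.94 and 0.07, a gap of 1.01, and Ccnb1 by -0.64 and 0.37, a gap of 1.003. These values are those of the brightest probes. The other Cdk4 probes gave -0.99 and -0.63 with LPS alone and -0.06 and -0.12 with LPS beside LA, so their signs did not differ. Other Ccnb1 probes gave 0.38 and -0.51 with LPS beside LA, the former with -0.43 for LPS alone. Bub1 differed by -0.71 and 0.32 with LA and by -0.73 and 0.30 with LPS, a gap of 1.03. Cenpa differed by -1.18 and 0.18 with LA and by -0.99 and 0.37 with LPS, a gap of 1.36. Several of the smaller values, such as 0.07 for Cdk4, are below the SD of 0.20 to 0.31 between probes of a gene, so their sign is not settled.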

How the results depend on the processing

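No paired analysis was possible because each group had 1 array, and for the same reason no replicate could be left out. Relative to all genes, the S phase median with LPS and LA against LPS moved the most, from 0.19 to 0.43 with the probes of each gene averaged, 0.39 with quantile normalization, 0.32 with dim probes kept and 0.085 with normexp. With LPS against medium the S phase median ranged from -0.41 to -0.19 and the mitosis median from -0.40 to -0.16, and with LA against medium the S phase median from 0.16 to 0.35. The mitosis median with LA against medium, near 0, ranged from -0.07 to 0.06 and so has no settled sign. With LPS and LA the mitosis median ranged from 0.24 to 0.44 against LPS, and against LA both medians from 0.05 to 0.11. With only genes of a mean level above 0, an alternative added after seeing the data, the mitosis median with LPS and the S phase median with LA, each against medium, were -0.23 and 0.28. Of 64 counts of genes at least 2-fold apart 52 stayed within 1.5 times. With LPS against medium 4 genes were lower under scaling by the 75th percentile of probes that every array detected, the authors' table and quantile normalization. With LA against medium 5 and 6 were higher under the former 2. With LPS and LA against LPS 1 was lower under these 2 and under normexp. Under normexp 1 was higher with LPS against medium, 0 were lower with LA against medium, 5 were higher with LPS and LA against LPS and 0 were lower with LPS and LA against LA. Normexp shrank differences over all genes, with 639 of 13628 at least 2-fold higher with LPS and LA against LPS in place of 1567 of 13631. Of the 21 differences of at least 2-fold, 11 remained so under all 8 alternatives and 0 changed sign. Of the differences under 2-fold 37 changed sign, none larger than 0.19. Depth limits Mcm2 and Ccne2, whose signals lay near the median background.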
